A study of Mus musculus with 4 samples.

Results

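The 10 genes described here encode the cystine transporter subunit of system xc-, the enzymes that make, recycle and use glutathione, the transcription factor NRF2 with its inhibitor KEAP1, and further NRF2 target genes. They are *Slc7a11*, *Gclc*, *Gclm*, *Gsr*, *Gpx4*, *Nfe2l2*, *Keap1*, *Nqo1*, *Txnrd1* and *Srxn1*, chosen by name, with earlier results of these data known. They make up 10 of the 39179 genes listed in the count data, and all 10 were among the 11483 genes tested. RNA-seq counts came from B16F1, a line of mouse melanoma cells, with 2 libraries of parental B16F1 control cells and 2 libraries of tumor repopulating cells (TRCs), numbered 1 and 3 in each group. TRCs are the B16F1 cells that grew into spheroids in a soft three-dimensional fibrin gel of 90 Pa and were taken out on day 5. The parental cells were drawn in flat culture in the study's scheme. The libraries carry no labelled gene edit, drug or transgene in either group. Growth in the gel and selection by the gel cannot be told apart in this design, both groups come from 1 cell line, and the sources used here do not say whether libraries of a group came from separate cultures. The p-values therefore measure only the spread between these libraries, which may be technical.

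System xc- takes up cystine in exchange for glutamate, and the cysteine made from it limits the synthesis of glutathione, the main small thiol of the cell. Glutathione is built by glutamate-cysteine ligase and glutathione synthetase, oxidised when peroxidases reduce peroxides, and returned to its reduced form by glutathione reductase with NADPH. NRF2 is held at low levels by KEAP1 in unstressed cells, and under oxidative or electrophilic stress it enters the nucleus and drives most of these genes through antioxidant response elements (AREs), while *Slc7a11* is also driven by ATF4 through C/EBP-ATF response elements (CAREs). In melanoma cells the same genes are known for protecting against the oxidants formed during pigment synthesis and against ferroptosis, a form of death by lipid peroxidation.

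RefSeq promoter windows of GRCm38.p6, reaching from 250 bases before to 50 bases after a transcription start, were found for 8 of the 10 genes, all but *Gclc* and *Gsr*. There were 13 windows, since *Gpx4* and *Txnrd1* each had several. Each window was searched on both strands for the ARE core TGACNNNGC, the CARE core TGATGNAA and the hypoxia response core ACGTG. Among all 32851 windows, 12.4% held the ARE core, 3.97% the CARE core and 19.6% the hypoxia core. These shares are per window, so a gene with several windows had several chances of a match. The stretches below are shown because they hold the matches that lie before the start in the *Slc7a11* promoter and in 3 promoters with an ARE core, with the matched letters in capitals.
Slc7a11, chr3:50443633-50443699, minus strand: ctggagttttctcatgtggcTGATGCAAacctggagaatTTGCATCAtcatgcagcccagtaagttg
Gclm, chr3:122245403-122245451, plus strand: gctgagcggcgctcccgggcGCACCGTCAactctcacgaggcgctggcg
Nfe2l2, chr2:75704875-75704913, minus strand: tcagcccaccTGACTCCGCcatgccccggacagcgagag
Txnrd1, chr10:82859094-82859142, plus strand: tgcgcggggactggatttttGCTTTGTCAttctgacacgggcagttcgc
The *Slc7a11* window held 2 CARE matches, on opposite strands and at positions -66 and -47 from the start, and no ARE core. A window with at least 2 CARE matches was found 23 times among the 32851, or in 0.07% of them. The *Srxn1* window held an ARE core after the start, *Keap1* and *Gclm* each held a hypoxia core, and the windows of *Gpx4* and *Nqo1* held none of the 3 motifs. The ARE core of *Txnrd1* lay in a single window, and the other windows of that gene held none of the 3 motifs. No match overlapped another, and a match or its absence describes the letters of the window only.

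Each library held between 35948295 and 43511554 gene counts, and the floor of 3 counts lay between 0.0689 and 0.0835 CPM on the library sizes before TMM scaling. Levels are given in CPM, the counts of a gene scaled to the library size, on the TMM-adjusted sizes. The lowest count of any of the 10 genes in any library was 158. The melanocyte lineage of the cells was checked with 10 markers, all of which were measured, with a summed level of 16277 to 19489 CPM in parental cells and 24673 to 27441 CPM in TRCs. Of these markers, *Oca2* (log2 fold change 1.95) and *Dct* (1.08) were higher in TRCs, the latter not called by edgeR's quasi-likelihood test (FDR = 0.0704). Of 11 leukocyte markers 6 were at 0 in every library, *Ptprc*, *Cd3e* and *Itgam* among them, and the summed level was 3.06 to 6.30 CPM in parental cells and 2.74 to 3.20 CPM in TRCs. Of 13 fibroblast and endothelial markers *Cdh5*, *Kdr* and *Emcn* were at 0 in every library, and the sum was 10.3 to 12.2 CPM in parental cells and 3.29 to 5.97 CPM in TRCs, with *Col1a2* lower (log2 fold change -2.52, FDR = 4.15e-06). Alignments that were not unique, which entered no gene count, made up 15.2% and 17.1% in parental cells and 18.3% and 25.2% in TRCs. The part of these differences in the results that follow was not tested.

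Among the 10 genes, 6 were downregulated in TRCs, none was upregulated and 4 were not called at an FDR under 0.05 in edgeR's exact test. The downregulated genes were *Slc7a11*, *Srxn1*, *Txnrd1*, *Gclm*, *Gclc* and *Gsr*, with falls of 1.84-fold to 11.6-fold. *Nqo1*, *Keap1*, *Nfe2l2* and *Gpx4* did not pass. Of all genes tested, 15.9% were called in either direction, 7.05% as lower and 8.81% as higher in TRCs. These shares are also the background for the list counts below. Without the correction for multiple tests, 7 of the 10 had p under 0.05 for a lower level and 0 for a higher level, and edgeR's quasi-likelihood test and DESeq2 also called 0 higher. The share of all genes tested with an unadjusted p under 0.05 is not given here. Counts at that threshold, here and for the lists below, therefore have no background beside them. Both TRC libraries lay below both parental libraries for 8 of the 10, all but *Gpx4* and *Keap1*, which was the case for 30.4% of all genes tested. Their median log2 fold change stood at -0.94, beside 0.0034 over all genes tested. In bulk RNA, fewer cells with a transcript and less of it in each cell cannot be told apart.

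**Figure D1:**
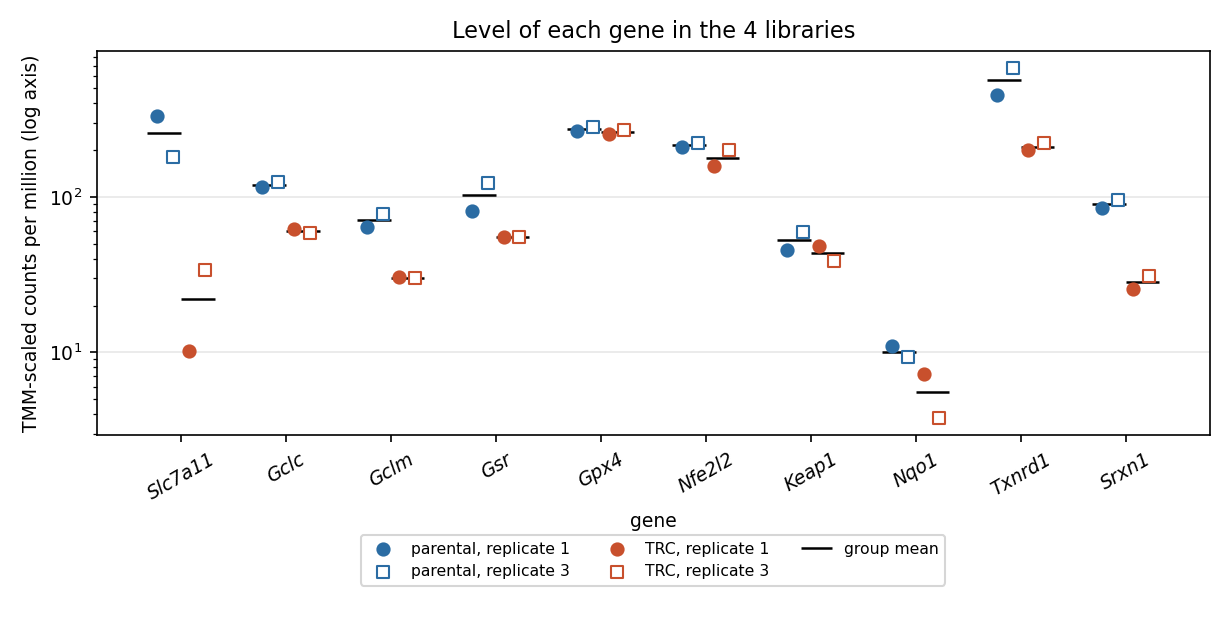
Level of each of the 10 genes in every library, in CPM on a log axis, with parental and TRC libraries as separate points. *Slc7a11* shows the widest gap between the groups, from 182 and 330 CPM in parental cells to 10.3 and 33.7 CPM in TRCs, while the points of *Gpx4* and *Keap1* overlap.

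*Slc7a11* (ENSMUSG00000027737, chromosome 3, 49892526 to 50443614, minus strand, GRCm38) encodes xCT, the transporting light chain of system xc-. Its level was 330 CPM in parental replicate 1, 182 CPM in parental replicate 3, 10.3 and 33.7 CPM in TRC replicates 1 and 3. Both TRC libraries were below both parental libraries, and the libraries within each group also stood apart, more so among TRCs. *Slc7a11* was downregulated 11.6-fold (log2 fold change -3.54, SE 0.87, 95% interval -5.25 to -1.83, exact test FDR = 6.09e-11), the fourth lowest log2 fold change of the 11483 genes tested. Its FDR was 0.00096 by DESeq2 and 0.0149 by edgeR's quasi-likelihood test, or 0.0322 with the replicate number as a block in that test. Leaving out each library in turn moved the log2 fold change between -4.65 without TRC replicate 3 and -2.94 without TRC replicate 1, and each of these fits called it lower. Without parental replicate 1, where it was highest, the value was -3.05 (FDR = 3.80e-08).

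*Slc3a2*, the heavy chain that carries xCT to the membrane and also pairs with other amino acid transporters, was at 496 and 260 CPM in parental replicates 1 and 3 and at 292 and 283 CPM in TRCs. Its groups overlapped and it was not called (log2 fold change -0.40, FDR = 0.393). The ratio of *Slc7a11* to *Slc3a2*, in CPM and not per length, was 0.665 and 0.699 in parental cells and 0.0352 and 0.119 in TRCs. The parental libraries thus differed little in this ratio although both transcripts were higher in replicate 1.

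*Atf4*, which encodes a regulator of *Slc7a11*, was at 837 and 465 CPM in parental replicates 1 and 3 and at 299 and 492 CPM in TRC replicates 1 and 3. The groups overlapped and it was not called (log2 fold change -0.72, FDR = 0.110). Without parental replicate 3 it was called lower (log2 fold change -1.08, FDR = 0.0171), and without parental replicate 1 its log2 fold change was -0.23. Of 23 genes tested in the list of ATF4 targets, which includes *Atf4* itself, 6 were downregulated and 2 upregulated, with a median log2 fold change of -0.68. The count of lower genes moved with every library, to 15 without parental replicate 3 and to 3 without each of the other libraries in turn. The summed level of these genes was 5558 CPM in parental replicate 1, 3040 CPM in parental replicate 3, and 2425 and 3027 CPM in TRCs, so parental replicate 1 stood above the other libraries.

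Among the ATF4 targets other than *Slc7a11*, *Phgdh*, the first enzyme of serine synthesis, fell from 336 and 300.3 CPM to 164 and 155 CPM (log2 fold change -0.997, FDR = 0.000335). *Slc7a1*, a carrier of cationic amino acids, fell from 506 and 411 CPM to 204 and 270 CPM (log2 fold change -0.95, FDR = 0.00230), a call lost without TRC replicate 1 (FDR = 0.134). The genes that rose were *Ddit4*, which encodes an inhibitor of mTORC1, with a log2 fold change of 1.91 (2.71 without parental replicate 1), and the lipoprotein receptor gene *Vldlr*, with 1.97 (4.37 without parental replicate 1 and 1.11 without parental replicate 3). *Vldlr* was at 16.8 and 1.76 CPM in parental cells and 29.0 and 43.5 CPM in TRCs, and its call was lost without TRC replicate 1 (FDR = 0.0745) and without TRC replicate 3 (FDR = 0.244). The wide gap between parental replicates was also seen for *Trib3*, a stress-induced pseudokinase chosen here after its values were seen, at 239 and 25.4 CPM in parental cells and 24.9 and 84.2 CPM in TRCs.

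Glutamate-cysteine ligase, which makes the rate-limiting step of glutathione synthesis, has a catalytic subunit encoded by *Gclc* and a modifier subunit encoded by *Gclm*. *Gclc* (ENSMUSG00000032350, chromosome 9, 77754535 to 77794485, plus strand) was at 115 and 125 CPM in parental replicates 1 and 3 and at 61.9 and 58.6 CPM in TRCs. Its groups were apart and replicates lay close together, and it was downregulated 1.99-fold (log2 fold change -0.99, SE 0.20, 95% interval -1.38 to -0.60, FDR = 0.000241). *Gclm* (ENSMUSG00000028124, chromosome 3, 122245557 to 122270732, plus strand) was at 64.3 and 78.1 CPM in parental cells and at 30.5 and 30.1 CPM in TRCs. It too showed no overlap and was downregulated 2.35-fold (log2 fold change -1.23, SE 0.22, 95% interval -1.67 to -0.79, FDR = 7.97e-06).

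Both subunit genes kept their calls without any library, with log2 fold changes of -1.05 to -0.94 for *Gclc* and -1.37 to -1.09 for *Gclm*. The ratio of *Gclm* to *Gclc* in CPM, not per length, was 0.558 and 0.626 in parental cells and 0.493 and 0.513 in TRCs. Exons of *Gclm* share 244 bases with the pseudogene *Gm6061* on the same strand, which had 6 to 13 counts, and 296 bases with *Gm17494* on the opposite strand, which had 0 counts in every library. *Gss*, encoding glutathione synthetase, which completes glutathione, was at 25.5 and 24.4 CPM in parental cells and 19.1 and 21.4 CPM in TRCs and was not called (log2 fold change -0.30, FDR = 0.528).

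In the wider list of glutathione synthesis, breakdown and export, 3 of 18 genes tested were lower and 1 was higher, with a median log2 fold change of -0.43. The 3 lower genes were *Slc7a11*, *Gclc* and *Gclm* themselves, so 0 of the other 15 were called lower, with 4 genes of the list at p under 0.05 for a lower level before adjustment and 3 called lower by each of DESeq2 and the quasi-likelihood test. The higher gene was *Abcc1*, a pump that exports glutathione and its conjugates, at 89.7 and 81.0 CPM in parental cells and 109 and 171 CPM in TRCs (log2 fold change 0.72, FDR = 0.0397). This call was lost without parental replicate 1 (FDR = 0.0767), parental replicate 3 (FDR = 0.268) or TRC replicate 3 (FDR = 0.559). Without parental replicate 3, 7 genes of the list were called lower.

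Cysteine can also be made from methionine through transsulfuration. The list used here covers transsulfuration and cysteine use, and it also holds genes of methionine use. Of 14 genes tested in it, 3 were lower and none was higher, with a median log2 fold change of -0.045. With no adjustment of the exact test, 1 had p under 0.05 for a higher level, and the quasi-likelihood test and DESeq2 called 0 higher. *Cth*, which releases cysteine in the last step, fell from 22.9 and 15.6 CPM to 9.57 and 5.77 CPM (log2 fold change -1.33, FDR = 0.00723). *Mat2a*, which makes S-adenosylmethionine, and *Ahcy*, which splits S-adenosylhomocysteine, act before transsulfuration. They fell by 0.77 and 0.78 on the log2 scale. The calls of these 3 genes were each lost without at least 1 library. Over these fits the log2 fold change ranged from -1.76 to -1.02 for *Cth*, -0.90 to -0.66 for *Mat2a* and -1.09 to -0.39 for *Ahcy*. A fit with a lone library in a group has less power, so a lost call need not reflect the library left out.

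*Gsr* (ENSMUSG00000031584, chromosome 8, 33652523 to 33698163, plus strand) encodes glutathione reductase. Its level was 81.0 and 124 CPM in parental replicates 1 and 3 and 55.6 and 55.4 CPM in TRCs. The groups did not overlap, with the parental libraries further apart than the TRC libraries, and it was downregulated 1.84-fold (log2 fold change -0.88, SE 0.26, 95% interval -1.39 to -0.37, FDR = 0.00634). It was the 1 gene of the 10 whose call was lost when a library was left out. The FDR was 0.183 without parental replicate 3, at a log2 fold change of -0.55, and 0.103 and 0.105 without TRC replicates 1 and 3.

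*Gpx4* (ENSMUSG00000075706, chromosome 10, 80047166 to 80056439, plus strand) encodes the selenoenzyme that uses glutathione to reduce lipid peroxides in membranes. Its level was 267 and 283 CPM in parental cells and 254 and 271 CPM in TRCs. The groups overlapped, and it was not called (log2 fold change -0.07, SE 0.19, 95% interval -0.43 to 0.30, FDR = 0.878). This interval lies above those of *Gclc* and *Gclm* but overlaps that of *Gsr* (-1.39 to -0.37). A small change of *Gpx4* in either direction lies within its interval. The annotation lists a processed pseudogene of *Gpx4*, and reads that align equally well to both were not counted.

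Of 9 genes for glutathione reduction, peroxidases and glutaredoxins tested, *Gsr* and *Gpx1* were lower and none was higher, with a median log2 fold change of -0.070. By edgeR's quasi-likelihood test and DESeq2 0 were higher, and 1 had p under 0.05 for a higher level in the exact test before adjustment. *Gpx1*, the abundant cytosolic peroxidase, fell from 101 and 132 CPM to 44.6 and 67.6 CPM (log2 fold change -1.06, FDR = 0.00136), with an FDR of 0.0501 without parental replicate 3 and 0.126 without TRC replicate 1. Without parental replicate 3 or without TRC replicate 1, 0 genes of this list were called lower by the exact test.

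Glutathione S-transferases, which join glutathione to electrophiles, moved in both directions, with 5 of 17 genes tested higher and 2 lower and a median log2 fold change of 0.49. *Gsta1* rose from 66.8 and 46.6 CPM to 184 and 273 CPM (log2 fold change 2.01, FDR = 2.36e-10). *Gsta2* rose from 7.74 and 2.92 CPM to 31.6 and 59.2 CPM (log2 fold change 3.09, FDR = 2.38e-09, and 3.96 without parental replicate 1). These paralogs are nearly identical in sequence, so the split of reads between them is uncertain. *Gstm5* rose by 0.95 on the log2 scale, and *Gsta3* and *Gsto1* fell by 2.16 and 1.01. *Gsta3* was low throughout, at 2.05 and 2.81 CPM in parental cells and 0.529 and 0.553 CPM in TRCs. The calls of *Gstm5*, *Gsta3* and *Gsto1* were each lost without at least 1 library, and the list's count of higher genes ranged from 2 to 7.

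*Nfe2l2* (ENSMUSG00000015839, chromosome 2, 75675513 to 75704641, minus strand) encodes NRF2. Its transcript was at 208 and 222 CPM in parental replicates 1 and 3 and at 158 and 199 CPM in TRCs. Both TRC libraries were below the parental libraries by a small margin, and it was not called (log2 fold change -0.27, SE 0.21, 95% interval -0.68 to 0.15, FDR = 0.489). *Keap1* (ENSMUSG00000003308, chromosome 9, 21229730 to 21239361, minus strand), the adaptor that hands NRF2 to the ubiquitin ligase CUL3, was at 45.5 and 59.8 CPM in parental cells and 48.4 and 38.5 CPM in TRCs. Its groups overlapped and it was not called either (log2 fold change -0.28, SE 0.25, 95% interval -0.77 to 0.22, FDR = 0.497). The ratio of *Keap1* to *Nfe2l2* in CPM, not per length, overlapped between groups, at 0.218 and 0.270 in parental cells and 0.305 and 0.193 in TRCs.

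The level of the NRF2 protein and its place in the cell were not measured, as these are transcript counts. The antisense gene *Gm16754* shares 510 exonic bases with *Keap1* and had 1 and 2 counts in parental cells and 19 and 47 in TRCs. The libraries were stranded, but the strand setting of the counting is not given in the sources used here.

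Among 17 genes of NRF2 control tested, 2 were lower and 1 was higher, with a median log2 fold change of -0.27. *Sqstm1*, encoding p62, which binds KEAP1 and takes it to autophagy and is itself an NRF2 target, fell from 1486 and 1451 CPM to 637 and 662 CPM (log2 fold change -1.18, FDR = 1.26e-05). The small MAF proteins are the DNA-binding partners of NRF2. *Mafg* fell from 160 and 157 CPM to 80.2 and 88.5 CPM (log2 fold change -0.91, FDR = 0.00115), whereas *Maff* rose from 1.98 and 3.66 CPM to 7.58 and 14.7 CPM (log2 fold change 1.99, FDR = 0.00126). The call of *Mafg* was lost without TRC replicate 1 (FDR = 0.0753) and that of *Maff* without TRC replicate 3 (FDR = 0.134). *Bach1*, a repressor that competes with NRF2 for its sites, was at 54.1 and 75.7 CPM in parental cells and 58.0 and 47.3 CPM in TRCs and was not called (log2 fold change -0.30, FDR = 0.450).

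**Figure D2:**
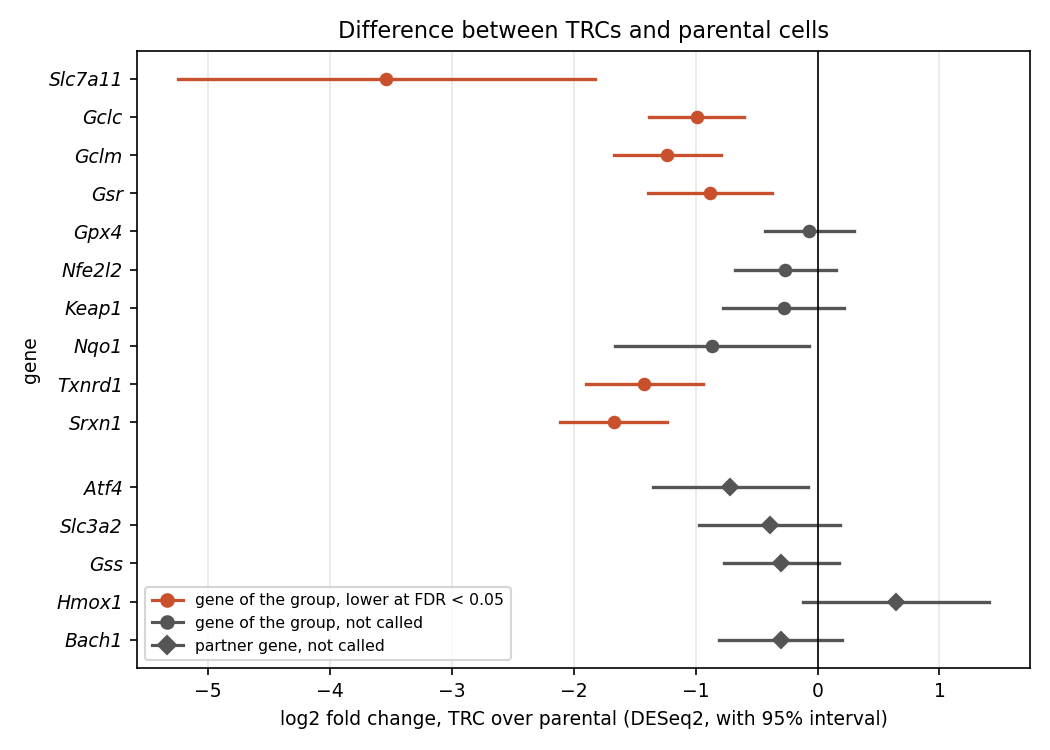
Log2 fold change of TRCs over parental cells for each of the 10 genes and their partners, with points from DESeq2 and bars for the 95% interval, red for genes called lower by edgeR's exact test, grey for genes not called and diamonds for the partners. The bar of *Slc7a11* is the longest among the 10 genes, from -5.25 to -1.83, and those of *Gpx4*, *Nfe2l2* and *Keap1* cross 0.

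*Txnrd1* (ENSMUSG00000020250, chromosome 10, 82833951 to 82897712, plus strand) encodes cytosolic thioredoxin reductase, a selenoenzyme that keeps thioredoxin reduced with NADPH, in parallel to glutathione reductase. Its level was 456 and 673 CPM in parental replicates 1 and 3 and 199 and 223 CPM in TRCs. The groups were far apart although the parental libraries differed, and it was downregulated 2.68-fold (log2 fold change -1.42, SE 0.24, 95% interval -1.90 to -0.94, FDR = 2.97e-06). *Srxn1* (ENSMUSG00000032802, chromosome 2, 152105516 to 152111376, plus strand) encodes sulfiredoxin, which repairs overoxidised peroxiredoxins. It was at 85.4 and 95.8 CPM in parental cells and 25.7 and 31.2 CPM in TRCs. The replicates lay close together in both groups, and it was downregulated 3.19-fold (log2 fold change -1.67, SE 0.22, 95% interval -2.11 to -1.23, FDR = 1.81e-10).

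Without single libraries the log2 fold change ranged from -1.67 to -1.11 for *Txnrd1* and from -1.83 to -1.55 for *Srxn1*, with both called each time. *Nqo1* (ENSMUSG00000003849, chromosome 8, 107388225 to 107403206, minus strand), a quinone reductase often used as a readout of NRF2, was low in these cells. Its level was 10.9 and 9.29 CPM in parental cells and 7.29 and 3.80 CPM in TRCs. Both TRC libraries were below both parental libraries, but it was not called after correction (log2 fold change -0.87, SE 0.41, 95% interval -1.66 to -0.07, FDR = 0.167, unadjusted exact test p = 0.0456). Without single libraries its log2 fold change ranged from -1.43 to -0.48.

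The thioredoxin and peroxiredoxin system showed 5 of 20 genes tested higher and 5 lower, with a median log2 fold change of -0.19. Beside *Srxn1* and *Txnrd1*, the mitochondrial reductase gene *Txnrd2* was lower (log2 fold change -1.67, FDR = 0.0149), at a low level of 1.89 and 1.87 CPM in parental cells and 0.674 and 0.505 CPM in TRCs. *Txnip*, encoding an inhibitor of thioredoxin, was at 75.1 and 15.9 CPM in parental cells and 125 and 252 CPM in TRCs and was called higher (log2 fold change 2.05, FDR = 0.00288). The value was 3.57 without parental replicate 1 and 1.33 without parental replicate 3. The call was lost without TRC replicate 3 (log2 fold change 1.45, FDR = 0.127), with edgeR's quasi-likelihood test (FDR = 0.0790) and with DESeq2 (FDR = 0.170). The sestrin genes *Sesn3* and *Sesn1*, whose products limit peroxides and mTORC1, rose by 0.97 and 1.04 on the log2 scale, and both calls were lost without TRC replicate 1. The call of *Txnrd2* was lost without parental replicate 3 or either TRC library. It was also lost with edgeR's quasi-likelihood test, with and without the replicate block, and with DESeq2. The ratio of *Txnrd1* to *Txn1*, its substrate thioredoxin, was 2.01 and 2.04 in parental cells and 1.17 and 1.25 in TRCs, in CPM and not per length. *Txn1* was itself called lower, from 227 and 329 CPM to 171 and 179 CPM (log2 fold change -0.67, FDR = 0.0457).

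Of 31 NRF2 target genes tested, 12 were lower and 3 higher, with a median log2 fold change of -0.31. Of these, 7 are among the 10 genes described here, and of the other 24 targets 6 were lower and 3 higher, with a median log2 fold change of 0.057. The list includes *Gsta4*, *Gstm1* and *Gstp1* but not *Gsta1* and *Gsta2*, which were higher (log2 fold changes 2.01 and 3.09). It also leaves out *Gsta3* and *Gsto1*, which were lower (-2.16 and -1.01). The counts therefore depend on which genes were listed. *Osgin1*, an oxidative-stress-induced growth inhibitor, fell from 37.8 and 61.6 CPM to 13.1 and 16.3 CPM (log2 fold change -1.76, FDR = 3.63e-07). *Sqstm1*, described above with NRF2 control, also belongs to this list. The higher targets were *Ugdh*, which makes UDP-glucuronate, with a log2 fold change of 1.21, *Me1*, the NADPH-forming malic enzyme, with 0.82, and *Abcc1*. *Ugdh* was at 56.0 and 77.2 CPM in parental cells and 121 and 188 CPM in TRCs, and its call was lost without TRC replicate 3 (FDR = 0.0600). *Me1* was at 104 and 136 CPM in parental cells and 208 and 217 CPM in TRCs, and its call was lost without parental replicate 1 (FDR = 0.104) or either TRC library. Without single libraries, 7 to 13 targets were lower and 0 to 3 higher, 0 of them without TRC replicate 3.

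*Hmox1*, encoding heme oxygenase, is another NRF2 target and is repressed by BACH1. It was at 119 and 72.0 CPM in parental replicates 1 and 3 and at 85.2 and 212 CPM in TRC replicates 1 and 3. The groups overlapped and it was not called (log2 fold change 0.64, FDR = 0.257). TRC replicate 3 set its direction, since the log2 fold change was -0.17 without that library, and without TRC replicate 1 it was called higher (log2 fold change 1.13, FDR = 0.0179).

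**Figure D3:**
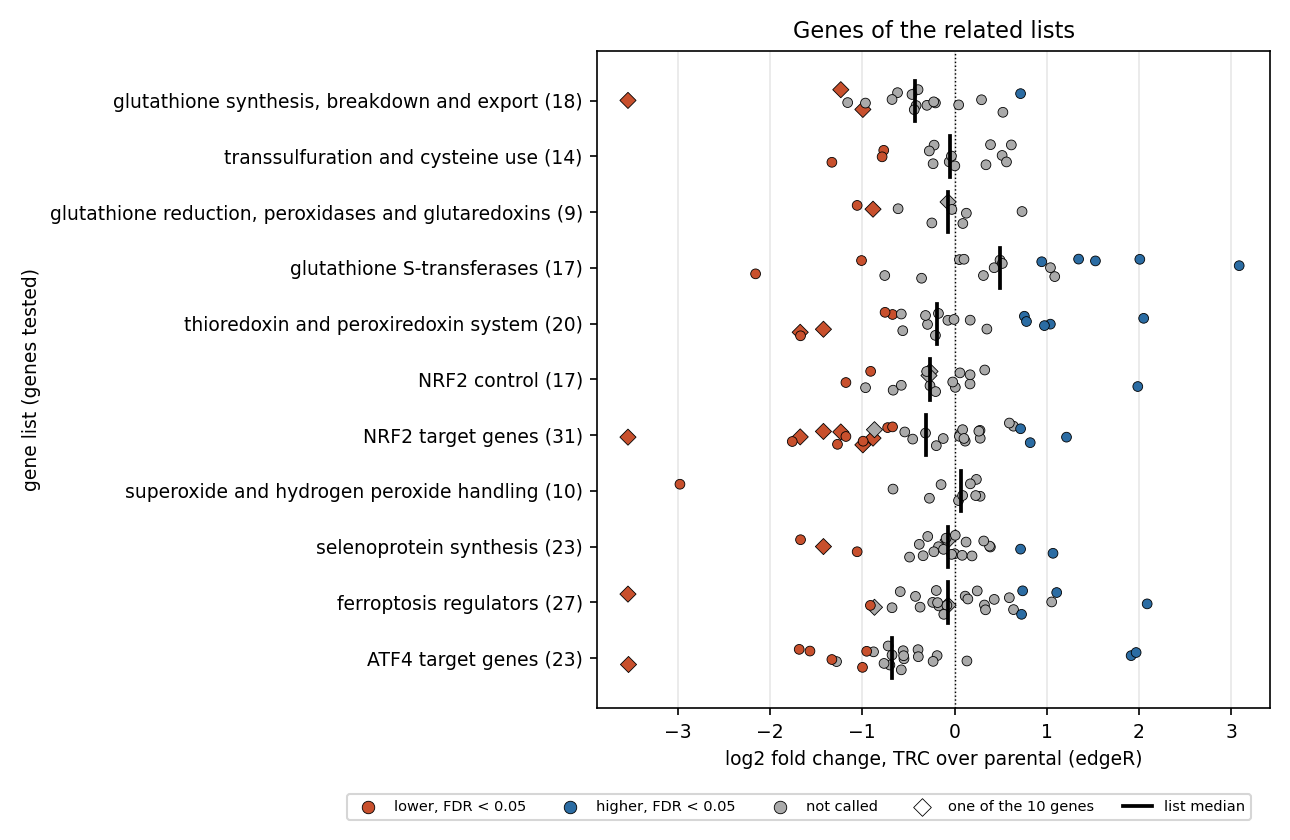
Log2 fold change of TRCs over parental cells for every gene tested in 11 related lists, with lower genes in red, higher genes in blue, other genes in grey, diamonds for the 10 genes described and a bar for each list's median. Lower and higher genes stand side by side in most lists, and the median lies at 0.49 for glutathione S-transferases and at -0.68 for ATF4 targets.

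Of 10 genes for superoxide and hydrogen peroxide handling tested, 1 was lower and none was higher by the exact test, by DESeq2 and by the quasi-likelihood test, nor at an unadjusted p under 0.05. The lower gene was *Duox1*, a hydrogen peroxide-forming oxidase, at 2.43 and 3.49 CPM in parental cells and 0.217 and 0.529 CPM in TRCs (log2 fold change -2.98, FDR = 1.35e-05, and -3.76 without TRC replicate 3). Of 23 genes for selenoprotein synthesis and selenoproteins tested, 3 were lower (*Txnrd1*, *Txnrd2* and *Gpx1*) and 2 higher, with a median log2 fold change of -0.070. The higher genes were *Selenop*, a secreted selenium carrier, and *Selenok*, a membrane protein of the endoplasmic reticulum, which rose by 1.07 and 0.72 on the log2 scale. The call of *Selenop* was lost without parental replicate 3 or TRC replicate 1, and that of *Selenok* without parental replicate 1 or either TRC library.

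Of 27 ferroptosis regulators tested, 4 were higher and 2 lower, with a median log2 fold change of -0.070. Over all genes tested, 8.81% were higher and 7.05% lower. *Mboat2*, an acyltransferase that puts monounsaturated chains into phospholipids and lowers sensitivity to ferroptosis, rose from 15.1 and 17.4 CPM to 55.1 and 83.3 CPM (log2 fold change 2.09, FDR = 6.13e-12). *Scd1*, a desaturase that makes those monounsaturated chains, rose from 203 and 249 CPM to 417 and 557 CPM (log2 fold change 1.11, FDR = 0.000306). *Acsl4*, which activates polyunsaturated fatty acids and raises sensitivity, rose from 58.1 and 68.9 CPM to 101 and 111 CPM (log2 fold change 0.74, FDR = 0.0125), a call lost without parental replicate 1 (FDR = 0.0975) or either TRC library. *Steap3*, a ferrireductase of iron uptake, fell from 73.0 and 78.2 CPM to 39.6 and 40.7 CPM (log2 fold change -0.91, FDR = 0.000947). The other lower gene was *Slc7a11*. The remaining higher gene was *Scd2* (log2 fold change 0.73, FDR = 0.0328). The rise of members that act in opposite directions on ferroptosis thus rests on *Acsl4*. Its call was lost without some libraries, while its log2 fold change ranged from 0.62 to 0.87 over these fits.

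Levels were compared between genes in CPM per kilobase of annotated exon, as mean ± SD with n = 2. In parental cells *Gpx4* was highest at 160 ± 6.46. *Txnrd1* at 79.6 ± 21.7 and *Nfe2l2* at 56.7 ± 2.51 followed and did not differ beyond their spread. *Gsr* at 37.2 ± 10.97, *Srxn1* at 32.1 ± 2.61 and *Gclc* at 31.9 ± 1.78 did not differ beyond their spread. *Slc7a11* followed at 18.4 ± 7.53, then *Gclm* at 11.3 ± 1.55 and *Keap1* at 11.2 ± 2.16. *Slc7a11*, *Gclm* and *Keap1* did not differ among themselves beyond their spread either. *Nqo1* was lowest at 6.51 ± 0.745.

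In TRCs *Gpx4* stayed first at 152 ± 6.98 CPM per kilobase, followed by *Nfe2l2* at 47.1 ± 7.63 and *Txnrd1* at 29.7 ± 2.37. *Gsr* at 20.1 ± 0.0681, *Gclc* at 16.0 ± 0.610 and *Srxn1* at 10.1 ± 1.38 came next, and *Srxn1* did not differ from *Keap1* at 9.26 ± 1.48 beyond their spread. *Gclm* was at 4.82 ± 0.0462, *Nqo1* at 3.57 ± 1.59 and *Slc7a11* at 1.58 ± 1.19. *Nqo1* did not differ from *Gclm* beyond their spread. *Slc7a11* ranked 7 in parental cells and 10 in TRCs, where it did not differ from *Nqo1* beyond their spread. The order depends on the length used. With the median length of protein-coding transcripts, chosen after the data were seen, *Slc7a11* ranked 5 in parental cells and 9 in TRCs, and *Gclm* ranked 4 in both.

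**Figure D4:**
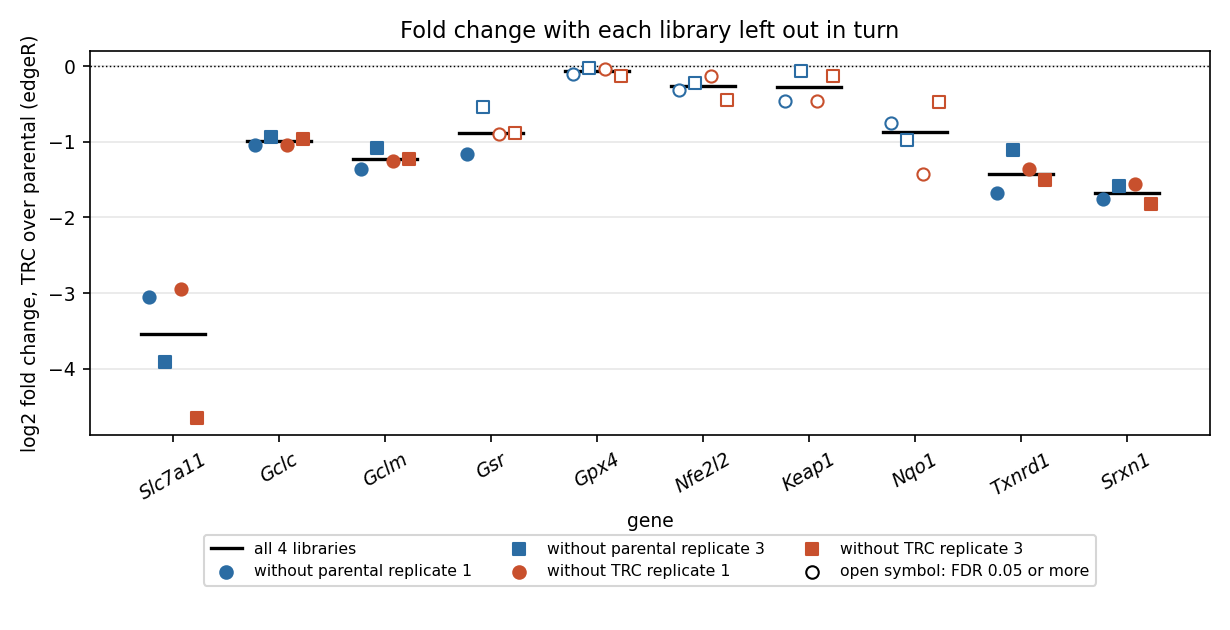
Log2 fold change of each of the 10 genes with all 4 libraries and without each library in turn (edgeR's exact test). *Gsr* is called with all libraries and loses its call in 3 of the 4 reduced fits, and *Slc7a11* moves between -4.65 and -2.94. Open symbols mark fits in which a gene is not called.

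The genes whose pattern over the 4 libraries was most like that of *Slc7a11* were found by Euclidean distance of log2(CPM + 0.5), centred on each gene's mean, among the 11483 genes tested. They were *Tagln2* (distance 0.73), *Notch1* (1.04), *Krt80* (1.23), *Adh7* (1.23) and *Masp1* (1.32). *Tagln2*, an actin-binding protein gene, was at 64.2 CPM in both parental libraries and at 2.89 and 12.2 CPM in TRC replicates 1 and 3. *Notch1*, encoding a receptor of cell-to-cell signalling, was at 11.1 and 6.63 CPM in parental cells and 0.457 and 1.27 CPM in TRCs. Their choice by likeness to *Slc7a11* over the same libraries fixes that they too were low in TRCs, so the values are a description. Without TRC replicate 3 the log2 fold changes were -4.48, -4.28, -3.60, -5.16 and -3.13 in the same order, beside -3.09, -3.35, -2.31, -3.83 and -2.34 with all libraries. Without TRC replicate 1 they were -2.41 for *Tagln2*, -1.66 for *Krt80* and -3.17 for *Adh7*. *Adh7* had levels of 33.4 and 5.95 CPM in parental cells, and its log2 fold change was -2.10 without parental replicate 1 and -4.59 without parental replicate 3.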

How the data were processed

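RNA of 2 parental and 2 TRC samples was sequenced from stranded libraries, and samples were grouped by their labels. Per the labels and the methods, the authors trimmed reads (Trimmomatic 0.35), aligned them to GRCm38 (TopHat2 2.1.0, Bowtie2 2.2.6) and counted them per Ensembl gene with HTSeq; the deposited values are raw counts, not normalized. The mode and strand setting of counting are not given in the sources used here.

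Totals that name no gene were removed, then genes under 1 CPM in at least 3 of 4 samples. TMM scaling, tagwise dispersions over a common one, and edgeR 4.0.16's exact test (R 4.3.3, prior count 0.125) followed the study's methods, and genes with a Benjamini-Hochberg FDR under 0.05 over all 11483 genes were called. Standard errors and 95% intervals (1.96 SE) came from DESeq2 1.42.0. CPM used TMM-scaled library sizes, and the pseudocount for distances was 0.5. The common biological coefficient of variation was 21.2%. An exact permutation test over samples cannot go below p = 0.333 with 2 against 2 and was not used. A fit without a library assumes that the lone sample varies like the other group. Such a fit also has less power, so a call lost in it need not reflect the library left out.

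The 10 genes, the gene lists and the tests were chosen with earlier results of these data known. The text names the 10 genes, their partners *Slc3a2*, *Atf4*, *Gss*, *Hmox1* and *Bach1*, up to 3 called genes per list and direction with the smallest FDR, and the 5 genes nearest to *Slc7a11*. *Trib3*, *Txn1*, *Scd2*, the antisense and pseudogene partners and markers listed at 0 lie outside this rule. The alternatives were 3 filters, DESeq2 size factors, library size only, the quasi-likelihood test of edgeR, the same with a replicate block, DESeq2's Wald test and each library left out. The scripts were tested on simulated data. Floors of 3 counts cover counting error only. Symbols, exons and transcript lengths came from an annotation of GRCm38, and promoter windows from RefSeq. A gene of the marker lists is not reported here.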

Additional observations from a re-analysis of the deposited data

Results flagged for a closer look

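The share of alignments that were not unique, which enters no gene count, was 18.31% in TRC replicate 1 and 25.22% in TRC replicate 3. Both lay above the parental libraries, at 15.2% and 17.09%. A search by gene name found an annotated processed pseudogene for *Gpx4* only, and copies under other names were not sought. The part of these alignments in the level of any of the 10 genes was not tested.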

How the results depend on the processing

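Of the 10 genes, 9 kept their call and direction in 12 of 12 alternative fits, the exception being *Gsr*, so that 5 to 6 were called lower and 0 higher throughout. With all 4 libraries, the largest FDR of these fits was 0.0330 for *Gclc*, 0.0252 for *Gclm*, 0.0217 for *Txnrd1* and 0.0157 for *Srxn1*. Over 54 named genes, 644 values were recomputed, of which 568 stayed on their side of the threshold, 74 lost the call and 2 gained it. No called value changed sign, and of the values not called only *Slc3a2* without parental replicate 1 (0.15) and *Hmox1* without TRC replicate 3 (-0.17) did. The lowest count of the 10 genes in a library was 158, and single libraries moved the list counts.

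The correlation between deviations of same-numbered samples from their group means was 0.0267 over 11483 genes. With 2 libraries in each group, both replicate numbers give the same value by construction. This single value cannot show whether same-numbered samples were prepared together. With the replicate block in the quasi-likelihood test, 477 genes were higher and 308 lower, and *Gsr* (FDR = 0.0612), *Krt80* (FDR = 0.0542) and *Adh7* (FDR = 0.1003) were not called. In the block fit, the lists held 0 higher for glutathione synthesis, 1 lower for transsulfuration, 1 lower for glutathione reduction, 1 lower for glutathione S-transferases, 0 higher and 2 lower for thioredoxin, 7 lower for NRF2 targets, 1 higher for selenoproteins, 2 higher for ferroptosis, and 0 higher and 3 lower for ATF4 targets. Without the block, the quasi-likelihood test called 567 genes higher and 487 lower, with 0 higher for glutathione synthesis and selenoproteins, 2 higher and 2 lower for thioredoxin and 1 higher for ATF4 targets.

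Without a filter, 0 were higher for glutathione synthesis, 3 for thioredoxin and 1 for ATF4 targets. With at least 1 CPM in at least 3 samples, 1 glutathione S-transferase and 0 superoxide genes were lower, the latter also at 10 counts in every sample, where *Duox1* was no longer tested. DESeq2 called 1 ATF4 target higher. The cause of the other differences was not tested.

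Without single libraries, 500 to 1078 genes were higher and 269 to 854 lower. The ranges of higher and lower genes were 0 to 1 and 3 to 7 for glutathione synthesis, 2 to 7 and 0 to 2 for glutathione S-transferases, 2 to 3 and 2 to 5 for thioredoxin, 0 to 1 and 1 to 2 for NRF2 control, 0 to 3 and 7 to 13 for NRF2 targets, 0 to 1 and 1 to 3 for selenoproteins, 2 to 4 and 2 to 3 for ferroptosis, and 1 to 5 and 3 to 15 for ATF4 targets. Lower genes ranged from 0 to 2 for transsulfuration and 0 to 3 for glutathione reduction.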
